A study of Bos taurus with 24 samples.

Results

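Cumulus cells of late antral bovine follicles (Bos taurus) were compared with granulosa cells of secondary follicles, which gives the net change over the whole span of follicle growth on the cumulus side. The libraries were taken by the stage and cell type in their labels: 5 of late antral cumulus cells and 4 of secondary granulosa cells, 9 of the 24 libraries of the series. Early antral cumulus cells (5 libraries) stand between the 2 ends, and mural granulosa cells of late antral follicles (5 libraries) were used where a change was set against the mural side. The labels give total RNA, a cDNA kit for very small RNA inputs (SMART-Seq v4) and transposase-cut libraries (Nextera XT). They name no breed, age, treatment or genotype, and do not say how many follicles or animals a library pooled. They also do not say that the libraries of a group came from separate animals, so every p-value measures the spread between these samples, which may be technical. The study asks whether granulosa cells of different stages can extend transzonal projections to an oocyte, and whether their gene expression changes over the same stages.

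Granulosa cells surround the oocyte from the start of follicle growth. In a secondary follicle they form several layers without a cavity. When the antrum opens, the cells that stay around the oocyte become cumulus cells and those along the wall become mural granulosa cells. Cumulus cells reach the oocyte through transzonal projections, thin actin- or tubulin-filled processes that end in gap junctions and adherens junctions. They pass pyruvate, amino acids and cyclic GMP to the oocyte, and the oocyte answers with growth factors of the TGF-beta family. Because these are bulk libraries, fewer cells of a type and less RNA per cell cannot be told apart.

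Total counts ran from 14195614 to 20353473 in the late antral cumulus libraries and from 10001810 to 30172169 in the secondary granulosa libraries. Levels are counts per 1000000 counts of a library (CPM), listed in the order of the library numbers, and means carry the SD over 5 late antral cumulus and 4 secondary granulosa libraries. Log2 fold changes (late antral cumulus over secondary granulosa, ± SE) and adjusted p-values come from edgeR's quasi-likelihood test over 14298 genes. A gene was called, and is said to have risen or fallen, at an adjusted p under 0.05. The main axis of variation among the 9 libraries held 54.9% of the variance and separated the groups, with late antral cumulus at 72.9 to 93.4 and secondary granulosa at −119 to −89.4.

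Late antral cumulus 3 stood apart from the other libraries of its group. Its mean correlation with them was 0.905, against 0.941 to 0.948 for the other 4, and mitochondrial genes took 27.7% of its counts, against 11.4% to 15.7%. The level of a gene list in a library is given as the median over its members of log2(CPM + 1) minus the secondary granulosa mean. For glycolysis this was 1.14, 1.13, −0.74, 1.24 and 1.32 in the late antral cumulus libraries, so library 3 lay below 0 while the others lay above 1. The same library was the lowest of the 5 for 13 of the 14 glycolysis genes that rose, 6 of the 6 steroid synthesis genes and 9 of the 12 hypoxia genes, against 1233 of all 3268 genes that rose (37.7%). It was also the lowest for 8 of the 9 granulosa identity genes and 7 of the 8 genes of oocyte paracrine signalling that rose. Without it the counts of rises and falls were 8 and 5 for granulosa identity, 8 and 4 for oocyte paracrine signalling, 6 and 1 for hormone receptors, 0 and 23 for the nuclear respiratory chain and 1 and 20 for DNA replication. Further counts without it stand beside single lists, and its part in the other lists was not tested there.

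**Figure D1:**
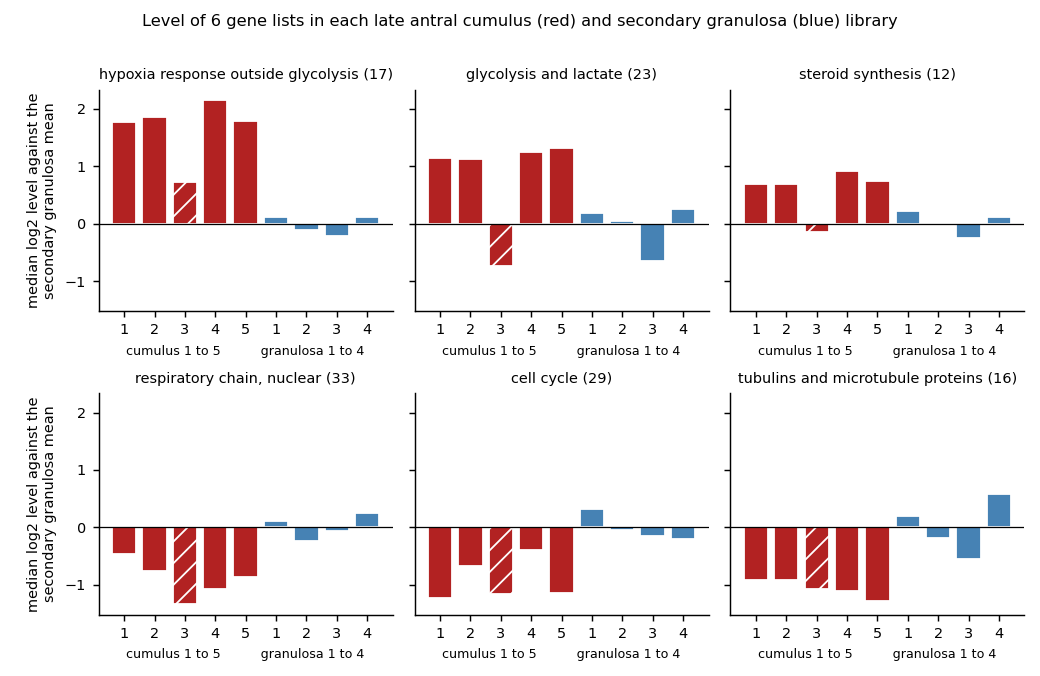
Level of 6 gene lists in each library: the bars give the median over the tested members (number in brackets) of log2(CPM + 1) minus the mean of the 4 secondary granulosa libraries, red for late antral cumulus 1 to 5 and blue for secondary granulosa 1 to 4. The hatched bar is late antral cumulus 3, which stood at −0.74 for glycolysis, where the other 4 cumulus libraries stood at 1.13 to 1.32.

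Over the whole span 6577 of the 14298 genes tested were called (46%): 3268 rose (22.9%) and 3309 fell (23.1%), with a median log2 fold change of 0.00 over all genes. At least 2-fold rises numbered 2078 (14.5%) and falls 2314 (16.2%), and changes of at least 16-fold numbered 196 rises and 355 falls. The CPM of the groups did not overlap for 2127 genes with late antral cumulus above (14.9%) and 2515 with it below (17.6%). Without late antral cumulus 3, 6377 genes were called. The calls followed exon length: with the genes in 5 equal classes of exon length, in the shortest class (12 to 1236 bases) 11.1% rose and 36.5% fell, and in the longest class (3894 to 25931 bases) 39.8% rose and 10.4% fell. The longest class took 13.2% to 17.8% of the counts in late antral cumulus, against 8.65% to 11.3% in secondary granulosa, and no library of another group exceeded 11.6%. With offsets corrected for length within each library, 5774 genes were called, 4958 of them shared with the 6577. The part of length in the changes of single lists was not tested beyond that fit, and counts from it are given beside a list as those with length-corrected offsets.

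**Figure D2:**
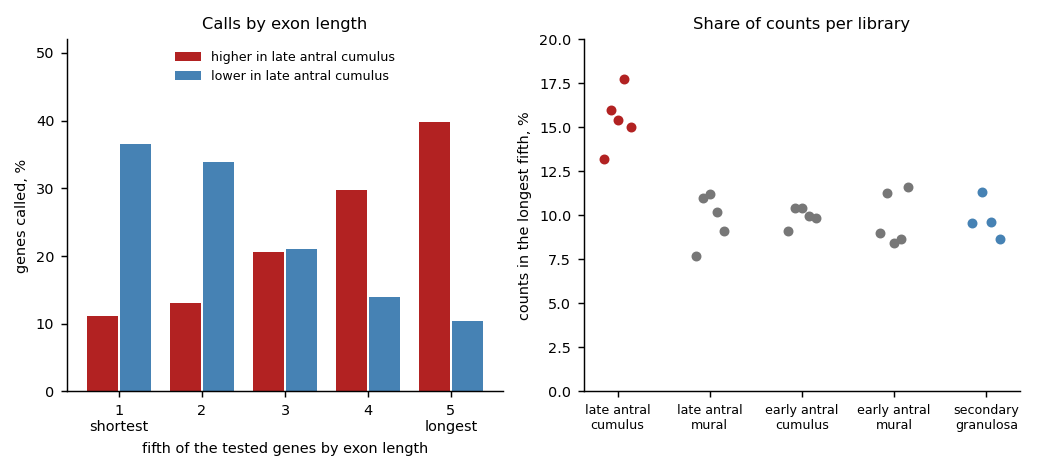
Left, the share of genes called higher (red) or lower (blue) in late antral cumulus against secondary granulosa, in 5 equal classes of exon length. Right, the share of each library's counts that fell in the longest class, 1 point per library: the 5 late antral cumulus libraries sit between 13.2% and 17.8%, above all others.

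The genes that mark granulosa cells and their hormone output split. Of the 19 granulosa identity genes, 9 rose (47.4%) and 5 fell (26.3%), against 22.9% and 23.1% of all genes (median 1.06). The rises were led by the subunits of activin and inhibin. INHBA, the beta A subunit (ENSBTAG00000048508, chr4:79288772-79302445 in ARS-UCD1.2), had 4889.8, 8039, 191, 11334 and 10799 CPM in the late antral cumulus libraries, against 61.4, 87.98, 71.3 and 38.02 CPM in the secondary granulosa libraries. Every cumulus library was higher than every granulosa library, but library 3 held 191 CPM where the other 4 held 4889.8 to 11334. The log2 fold change was 6.76 ± 1.01 (adjusted p = 2.3e-05). INHBB, the beta B subunit, averaged 1160.1 ± 485 CPM against 84.6 ± 58.1 CPM (3.78 ± 0.61, adjusted p = 4.5e-05). FST, follistatin, which binds and blocks activin, averaged 9142 ± 3974 CPM against 2109 ± 275 CPM (2.13 ± 0.62, adjusted p = 0.0072), also without overlap. INHA, the alpha subunit that turns these dimers into inhibin, was called only narrowly, at 1.55 ± 0.62 and an adjusted p of 0.045, and its groups overlapped. INHA was not called in 11 of its 19 alternatives, with adjusted p-values up to 0.13.

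NR5A2, a nuclear receptor that drives steroidogenic genes, had 906, 912, 519, 1178 and 1087 CPM in late antral cumulus, against 54.4, 145, 70.3 and 60.2 CPM in secondary granulosa. The lowest cumulus library was more than 3-fold above the highest granulosa library, and the log2 fold change was 3.50 ± 0.33 (adjusted p = 3.1e-08). SERPINE2, an inhibitor of serine proteases, averaged 3412 ± 449.6 CPM against 911 ± 474 CPM (1.96 ± 0.30, adjusted p = 1.5e-05). Among the falls was WT1, a transcription factor of early gonadal somatic cells, at 7.33, 3.24, 4.91, 2.17 and 2.32 CPM in late antral cumulus, against 62.2, 75.6, 82.9 and 60.9 CPM in secondary granulosa (−4.07 ± 0.31, adjusted p = 1.4e-09). NR0B1, which represses steroidogenic transcription, and AMHR2, the receptor of anti-Müllerian hormone, fell by 3.43 and 2.60 on the log2 scale (adjusted p = 0.00035 and 7.3e-05). AMH itself averaged 589.8 ± 240.2 CPM against 239.8 ± 100.4 CPM (1.32 ± 0.63, adjusted p = 0.09) and was not called. The follicle-stimulating hormone receptor FSHR stood at 390.4, 329.9, 301, 378 and 397 CPM in late antral cumulus and at 318, 258, 259 and 392 CPM in secondary granulosa. Its groups overlapped, and the interval of its log2 fold change ran from −0.74 to 1.29 (adjusted p = 0.68).

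**Figure D3:**
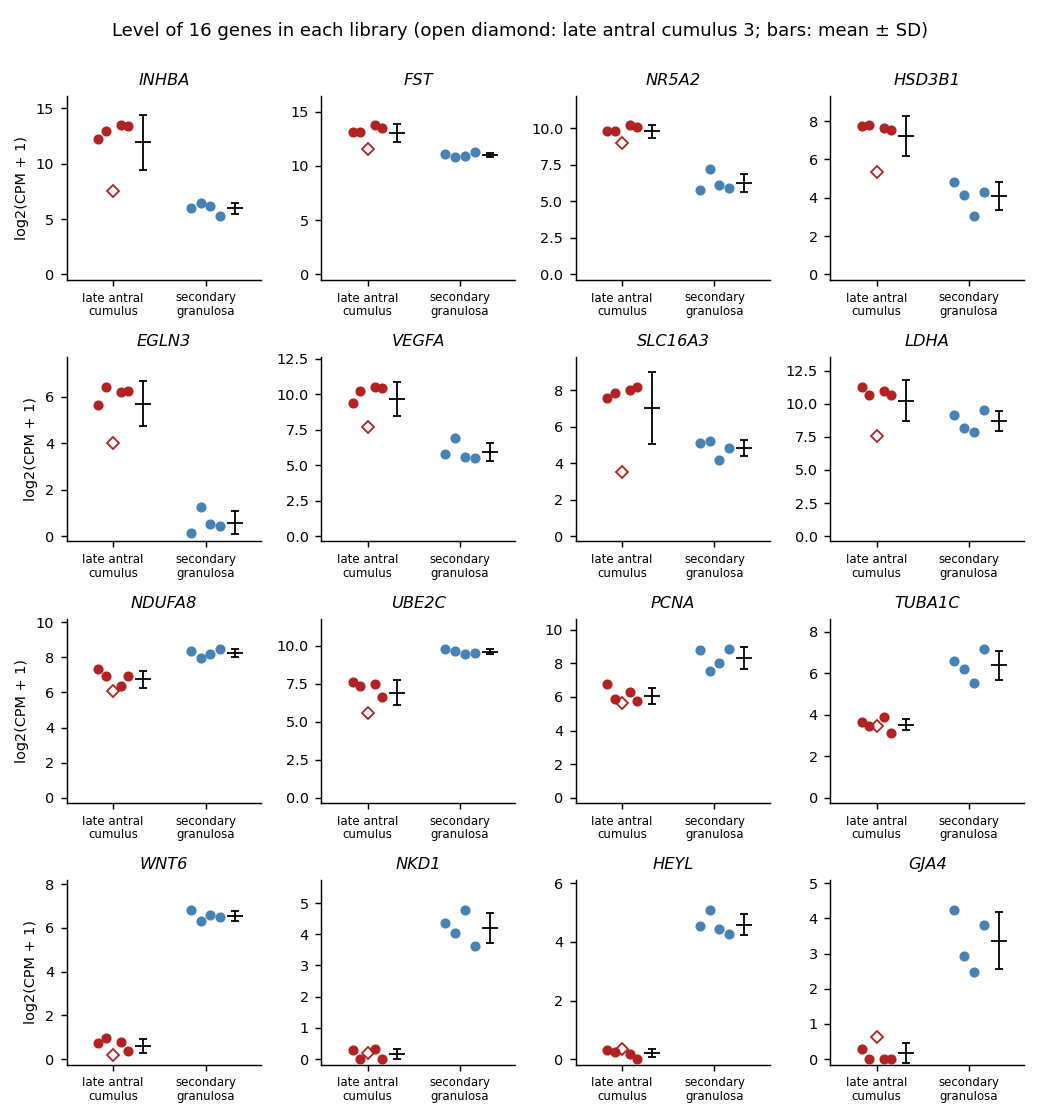
Level of 16 genes as log2(CPM + 1) in each of the 5 late antral cumulus (red, left) and 4 secondary granulosa (blue, right) libraries, with mean ± SD as black bars. Open diamonds mark late antral cumulus 3, which holds 191 CPM of INHBA and 10.2 CPM of SLC16A3, below the other 4 cumulus libraries in both.

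Enzymes that turn cholesterol into progesterone and oestradiol rose. Of 12 steroid synthesis genes 6 were higher (50%) and 1 lower (8.33%), against 22.9% and 23.1% of all genes (median 0.66). The counts were 7 and 1 without late antral cumulus 3. HSD3B1, which makes progesterone, had 211, 218, 39.5, 200.4 and 187 CPM in late antral cumulus, against 27.4, 16.4, 7.37 and 19.1 CPM in secondary granulosa (3.32 ± 0.52, adjusted p = 2.9e-05). Library 3 was the lowest cumulus library and still exceeded every granulosa library. CYP11A1, the side-chain cleavage enzyme that starts the pathway, had 216, 221, 57.2, 348 and 240.0 CPM, against 62.4, 94.4, 44.1 and 31.2 CPM in secondary granulosa (1.91 ± 0.43, adjusted p = 0.00094). CYP19A1, the aromatase that makes oestradiol, averaged 39.9 ± 21.5 CPM against 6.57 ± 1.57 CPM (2.62 ± 0.75, adjusted p = 0.0069). Library 3 held 57.2 CPM of CYP11A1, inside the secondary granulosa range, and 4.36 CPM of CYP19A1, below that range, while the other 4 cumulus libraries lay above it in both genes. CYP19A1 was not called by limma-voom, where its adjusted p was 0.069. TSPO, an outer mitochondrial membrane protein, fell (−1.90 ± 0.56, adjusted p = 0.0084). STAR, which carries cholesterol into mitochondria, stayed low at 4.904 ± 0.448 CPM against 3.13 ± 0.643 CPM and was not called.

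Of 23 genes of cholesterol synthesis and uptake, 8 rose (34.8%) and 1 fell (4.35%), against 22.9% and 23.1% of all genes (median 0.19). The counts were 10 and 1 without late antral cumulus 3, and the rises numbered 5 without secondary granulosa 3. LSS, lanosterol synthase, averaged 135 ± 28.6 CPM against 25.3 ± 7.06 CPM (2.46 ± 0.39, adjusted p = 2.6e-05). SCARB1, the receptor for high-density lipoprotein, averaged 122 ± 39.2 CPM against 33.4 ± 6.18 CPM (1.89 ± 0.23, adjusted p = 6.7e-07), and both genes did so without overlap. EBP, a sterol isomerase, went the other way, with 22.5 ± 8.61 CPM against 93.3 ± 24.2 CPM (−2.01 ± 0.36, adjusted p = 9e-05). Of 16 hormone receptors 7 rose (43.8%) and 1 fell (6.25%), against the same shares of all genes. The rises numbered 4 without secondary granulosa 4 and 5 with length-corrected offsets. IGF1R, the receptor of insulin-like growth factor, had 17.6, 29.4, 54.8, 41.1 and 38.5 CPM in late antral cumulus, against 3.45, 9.598, 3.4 and 6.93 CPM in secondary granulosa, without overlap (2.69 ± 0.35, adjusted p = 2.4e-06). The growth hormone receptor GHR (2.26 ± 0.39) and the thyroid hormone receptor THRB (2.38 ± 0.74) rose too, and the membrane progesterone receptor component PGRMC1 fell (−2.05 ± 0.26), at adjusted p-values of 6.9e-05, 0.01 and 1.3e-06. Within the insulin-like growth factor system, 2 of 13 rose (15.4%) and 3 fell (23.1%), against 22.9% and 23.1% of all genes. With length-corrected offsets 2 rose and 5 fell. IGFBP4 averaged 59.2 ± 34.1 CPM against 1.88 ± 2.06 CPM and IGFBP6 4.38 ± 2.63 CPM against 105 ± 19.4 CPM, 2 binding proteins that moved in opposite directions (5.07 ± 0.96 and −4.54 ± 0.57, adjusted p = 0.00026 and 2.5e-06).

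Of 22 genes of oocyte paracrine signalling, 8 rose (36.4%) and 4 fell (18.2%), against 22.9% and 23.1% of all genes (median 0.37). Kit ligand, KITLG, which granulosa cells give to the growing oocyte, had 1.03, 2.46, 0.831, 2.42 and 2.47 CPM in late antral cumulus, against 6.42, 6.199, 14.7 and 9.51 CPM in secondary granulosa, so that every cumulus library was lower (−2.31 ± 0.63, adjusted p = 0.0046). ID1, a helix-loop-helix inhibitor induced by bone morphogenetic proteins (BMPs), had 1.03, 0.5896, 0.831, 1.39 and 0.634 CPM, against 88.4, 78.5, 83.2 and 48.3 CPM in secondary granulosa (−6.34 ± 0.71, adjusted p = 8.1e-07). Its relative ID2 fell less, by 0.98 on the log2 scale (adjusted p = 0.02). The secreted BMP antagonists parted: CHRD rose to 42.5 ± 19.5 CPM, against 5.304 ± 3.56 CPM in secondary granulosa, and GREM1 fell to 7.55 ± 1.74 CPM, against 20.01 ± 2.71 CPM (3.03 ± 0.64 and −1.37 ± 0.24, adjusted p = 0.00065 and 8e-05). TGFBR3, the coreceptor betaglycan, rose (1.55 ± 0.41, adjusted p = 0.0038).

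Of 12 genes of cyclic GMP and meiotic arrest, 6 rose (50%) and 2 fell (16.7%), against 22.9% and 23.1% of all genes. With length-corrected offsets 3 rose and 3 fell, and without late antral cumulus 5 the rises numbered 3. NPR2, the receptor guanylyl cyclase that makes the cyclic GMP passed to the oocyte, had 20.5, 28.99, 15.1, 26.9 and 25.01 CPM in late antral cumulus, against 8.34, 9.898, 5.596 and 7.32 CPM in secondary granulosa, without overlap (1.62 ± 0.39, adjusted p = 0.0018). NPR1, the related receptor of atrial natriuretic peptide, had 0.801, 0.5896, 0.554, 0.725 and 0.564 CPM, against 1.97, 5.499, 3.26 and 2.98 CPM in secondary granulosa, and was lower in every cumulus library (−2.35 ± 0.36, adjusted p = 1.5e-05). NPR3, a receptor that clears these peptides, was at 1.49, 2.46, 32.1, 4.59 and 2.96 CPM in late antral cumulus and at 0.0987, 0.2, 0.142 and 0.133 CPM in secondary granulosa (adjusted p = 0.00047). Library 3 held most of it. The ligand NPPC was at 0 in 4 of the 5 late antral cumulus libraries and under 1 CPM in all secondary granulosa libraries, and was not called (adjusted p = 0.22).

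Glycolytic genes and genes of the hypoxia response were higher in late antral cumulus. Of 23 genes of glycolysis and lactate handling 14 rose (60.9%) and 1 fell (median 0.91). Of 17 genes of the hypoxia response outside glycolysis 12 rose (70.6%) and none fell (median 1.73). Over all genes 22.9% rose and 23.1% fell. SLC16A3, which exports lactate, had 192, 230.4, 10.2, 261 and 291 CPM in late antral cumulus, against 33.3, 36.4, 17.2 and 27.3 CPM in secondary granulosa (2.80 ± 0.71, adjusted p = 0.0032). PDK1, a pyruvate dehydrogenase kinase, had 181, 219, 28.8, 212 and 203 CPM, against 31.5, 45.7, 18.3 and 29.1 CPM in secondary granulosa (2.46 ± 0.41, adjusted p = 5.4e-05). In both genes 4 cumulus libraries lay far above the granulosa libraries, while library 3 lay below them for SLC16A3 and among them for PDK1. LDHA, which makes lactate, had 2479, 1658, 185, 2023 and 1655 CPM, against 572, 290.3, 234 and 727 CPM in secondary granulosa (1.85 ± 0.67, adjusted p = 0.028), with library 3 below all granulosa libraries. Its sister LDHB, the subunit that favours pyruvate, fell (−0.50 ± 0.19, adjusted p = 0.037). The glucose transporter SLC2A1 had 153, 203, 192, 443 and 191 CPM, against 52.8, 143, 47.96 and 89.7 CPM in secondary granulosa, and here library 3 was not low (1.51 ± 0.49, adjusted p = 0.015). PFKP, ENO1, HK2, PGK1, ALDOA and PKM rose as well, and GAPDH was not called (0.99 ± 0.42, adjusted p = 0.053). Without late antral cumulus 3 the glycolysis counts were 16 rises and 2 falls, and without secondary granulosa 3 the rises numbered 9.

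EGLN3, an oxygen-sensing prolyl hydroxylase (ENSBTAG00000008172, chr21:44387137-44416154), had 49.5, 84.5, 15.3, 72.1 and 74.1 CPM in late antral cumulus, against 0.0987, 1.4, 0.425 and 0.331 CPM in secondary granulosa. It was among the 15 largest rises of all genes (6.90 ± 0.93, adjusted p = 6.4e-06) and its groups were far apart; without secondary granulosa 2 the log2 fold change was 7.71. VEGFA, the angiogenic growth factor, had 663, 1219, 209.5, 1458 and 1404 CPM, against 53.5, 117, 46.9 and 45.2 CPM in secondary granulosa (3.92 ± 0.57, adjusted p = 1.3e-05). HIF1A, the oxygen-regulated transcription factor, had 2332, 3430.3, 2223, 3240.2 and 2754 CPM, against 640.3, 401, 684 and 647 CPM in secondary granulosa, and library 3 was close to the rest of its group (2.27 ± 0.24, adjusted p = 1.5e-07). NDUFA4L2, a hypoxia-induced paralogue of a respiratory chain subunit, had 874, 701, 5.95, 789 and 595 CPM, against 14.6, 29.5, 12.8 and 53.7 CPM in secondary granulosa. Library 3 was below all granulosa libraries there, and the log2 fold change was 4.44 ± 1.01 (adjusted p = 0.0014). NDRG1, DDIT4, ADM and KDM3A were among the other rises. The count of 12 was the same without late antral cumulus 3 and with length-corrected offsets. PPP1R3C, a glycogen-targeting subunit of protein phosphatase that was also among the 15 largest rises, averaged 17.9 ± 9.75 CPM against 0.245 ± 0.171 CPM (6.33 ± 1.54, adjusted p = 0.0021).

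Nuclear genes of the respiratory chain were lower. Of 33 members 27 fell (81.8%) and none rose, against 23.1% and 22.9% of all genes (median −0.86). NDUFA8, of complex I, had 164, 123, 66.6, 82.9 and 121 CPM in late antral cumulus, against 324, 249, 294 and 363 CPM in secondary granulosa, and every cumulus library was lower (−1.41 ± 0.24, adjusted p = 5.2e-05). CYC1, cytochrome c1 of complex III, averaged 205 ± 55.1 CPM against 521 ± 198 CPM (−1.30 ± 0.26, adjusted p = 0.00034). ATP5F1C, of the ATP synthase, averaged 199 ± 62.9 CPM against 514 ± 65.2 CPM (−1.33 ± 0.24, adjusted p = 9.1e-05). These genes are short, with a median exon length of 1219 bases: with length-corrected offsets 18 fell and none rose, at a median of −0.47. Cytosolic ribosomal proteins had a median length of 927 bases. Of 41, 12 were lower (29.3%) and 1 higher (2.44%), against 23.1% and 22.9% of all genes (median −0.43). Without secondary granulosa 2, 6 were lower. With length-corrected offsets 5 were higher and 4 lower, at a median of 0.03, so their direction depended on that setting.

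Genes of cell division were lower. Of 29 cell cycle genes 16 fell (55.2%) and none rose (median −0.96). Of 30 DNA replication genes 20 fell (66.7%) and 1 rose (median −1.04), against 23.1% and 22.9% of all genes. UBE2C, the ubiquitin-conjugating enzyme of the anaphase-promoting complex, had 194, 162, 46.3, 175 and 97.7 CPM in late antral cumulus, against 906, 818, 715 and 731 CPM in secondary granulosa (−2.52 ± 0.47, adjusted p = 0.00016). CDK1, the mitotic kinase, had 17.1, 16.9, 15.02, 23.7 and 12.96 CPM, against 74.6, 28.7, 44.6 and 44.9 CPM in secondary granulosa (−1.45 ± 0.30, adjusted p = 0.00047). PCNA, the sliding clamp of DNA polymerase, had 110.0, 57.7, 48.3, 78.6 and 52.3 CPM, against 448, 189, 255 and 473 CPM in secondary granulosa (−2.24 ± 0.37, adjusted p = 3.9e-05). In all 3 genes every cumulus library was below every granulosa library. MKI67, a proliferation marker, averaged 34.7 ± 15.6 CPM against 62.04 ± 29.01 CPM and was not called, and neither was TOP2A (adjusted p = 0.12 and 0.086). The cell cycle count was 15 without late antral cumulus 3 and 22 with length-corrected offsets. Of 12 cell cycle inhibitors and D-type cyclins 4 rose (33.3%) and 2 fell (16.7%), against 22.9% and 23.1% of all genes. CCND2, a D-type cyclin, had 999, 1283, 1149, 1651 and 1532 CPM, against 306, 247, 263 and 297 CPM in secondary granulosa (2.28 ± 0.37, adjusted p = 3.7e-05), and CDKN1B, an inhibitor of cyclin-dependent kinases, averaged 74.2 ± 23.5 CPM against 30.8 ± 9.51 CPM (1.28 ± 0.24, adjusted p = 0.00016). Both therefore moved opposite to the mitotic genes.

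Few genes of actin-filled projections were called, and most tubulins fell. Of 24 genes of filopodia and transzonal projections 5 rose (20.8%) and 2 fell (8.33%), against 22.9% and 23.1% of all genes (median 0.19), and 3 and 4 with length-corrected offsets. MYO10, the motor of filopodial tips, had 90.5, 91.6, 70.5, 103 and 72.1 CPM in late antral cumulus, against 43.8, 86.1, 51.9 and 56.1 CPM in secondary granulosa, with overlap (0.55 ± 0.27, interval 0.00 to 1.1, adjusted p = 0.092). The formin DAAM1 had 43.2, 61.95, 79.3, 64.04 and 45.01 CPM, against 21.6, 41.99, 26.2 and 18.5 CPM in secondary granulosa (1.16 ± 0.32, adjusted p = 0.0045). Another formin, FMNL1, averaged 19.8 ± 10.4 CPM against 3.997 ± 1.43 CPM (2.33 ± 0.63, adjusted p = 0.0043). Library 3 held 1.45 CPM of it, below all granulosa libraries. FSCN1, fascin, which bundles filopodial actin, had 1.03, 1.77, 3.53, 1.93 and 2.89 CPM, against 9.28, 12.5, 13.8 and 10.3 CPM in secondary granulosa. The groups did not overlap, but the adjusted p of 0.0495 (−2.32 ± 0.95) was above 0.05 when any 1 of the 9 libraries was left out, and 0.051 without late antral cumulus 3. The small GTPase RAC1 fell (−0.89 ± 0.20, adjusted p = 0.00087). Of 20 genes of the Arp2/3 and WAVE complexes, which branch actin, 3 rose (15%) and 6 fell (30%). Only 1 rose without late antral cumulus 2 or 3 or secondary granulosa 2. ARPC1B averaged 2.37 ± 0.716 CPM against 9.68 ± 4.32 CPM (−1.99 ± 0.59, adjusted p = 0.0082).

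Of 16 tubulins and microtubule proteins 11 fell and 1 rose (median −1.57), against 23.1% and 22.9% of all genes. TUBA1C, an alpha-tubulin, had 11.6, 9.97, 9.97, 13.8 and 7.75 CPM in late antral cumulus, against 94.8, 73.1, 45.4 and 145 CPM in secondary granulosa (−3.03 ± 0.34, adjusted p = 2.4e-07). TUBB, a beta-tubulin, had 206, 237, 191, 179 and 214 CPM, against 597, 439, 289 and 534 CPM in secondary granulosa (−1.12 ± 0.22, adjusted p = 0.00026). Neither gene's groups overlapped. Tubulin paralogues are near-identical in sequence and may share reads, so the split between members is uncertain. The rise was MAP4, a microtubule-associated protein (1.17 ± 0.38, adjusted p = 0.014). With length-corrected offsets 8 fell and none rose, and none rose without late antral cumulus 3 or secondary granulosa 1 or 4 either.

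Connexins, the proteins of gap junctions, were lower or not called. The listed cadherins, catenins and nectins, of adherens junctions, were higher or not called, while CDH13, a cadherin outside the list, fell. Of the 4 connexins tested 3 fell. GJA4, connexin 37, had 0.229, 0, 0.554, 0 and 0 CPM in late antral cumulus, against 17.9, 6.599, 4.604 and 13.2 CPM in secondary granulosa (−5.98 ± 1.24, adjusted p = 0.00055, and −7.29 without library 3). GJC1 averaged 4.32 ± 2.35 CPM against 14.5 ± 7.35 CPM (−1.69 ± 0.34, adjusted p = 0.00033). GJA1, connexin 43, the main connexin between granulosa cells, had 609.6, 662, 778, 666 and 599.6 CPM, against 403, 343, 592 and 367 CPM in secondary granulosa. Every cumulus library was higher, yet the gene was not called (0.67 ± 0.30, interval 0.05 to 1.30, adjusted p = 0.072). Of 17 cadherins, catenins and nectins 8 rose (47.1%) and none fell, against 22.9% and 23.1% of all genes (median 0.66). These are long genes, with a median of 4457 bases, and with length-corrected offsets 4 rose and 3 fell. CDH11 had 21.3, 63.5, 43.3, 36.4 and 32.97 CPM, against 5.63, 3.199, 5.45 and 3.48 CPM in secondary granulosa (3.19 ± 0.50, adjusted p = 2.5e-05). CTNNB1, beta-catenin, had 525, 605, 392, 687 and 497 CPM, against 207, 185, 160.0 and 269 CPM in secondary granulosa (1.43 ± 0.18, adjusted p = 1.5e-06), and AFDN, the nectin-binding afadin, averaged 342 ± 46.7 CPM against 97.8 ± 32.3 CPM (1.84 ± 0.23, adjusted p = 1e-06). None of these 3 overlapped between groups. E-cadherin, CDH1 (2.07 ± 0.75, adjusted p = 0.029), and N-cadherin, CDH2 (0.89 ± 0.27, adjusted p = 0.0087), rose but were not called with length-corrected offsets. CDH1 was also not called without late antral cumulus 3 or without secondary granulosa 2, 3 or 4 (adjusted p of 0.058 to 0.069).

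Single Wnt and Notch genes were nearly lost from late antral cumulus, while both lists held rises and falls in equal number. Of 20 genes of Wnt feedback and targets 4 rose (20%) and 4 fell (20%), against 22.9% and 23.1% of all genes (median 0.31). WNT6, a ligand (ENSBTAG00000013990, chr2:106822087-106835094), had 0.687, 0.983, 0.138, 0.725 and 0.282 CPM in late antral cumulus, against 112, 78.1, 96.3 and 88.7 CPM in secondary granulosa (−7.28 ± 0.60, adjusted p = 8.8e-09). NKD1, a feedback inhibitor that Wnt signalling induces (chr18:18940443-19034788), had 0.229, 0, 0.138, 0.242 and 0 CPM, against 19.7, 15.6, 26.4 and 11.4 CPM in secondary granulosa (−7.13 ± 0.63, adjusted p = 1.1e-08). AXIN2, another induced inhibitor, averaged 2.32 ± 1.19 CPM against 16.1 ± 5.47 CPM (−2.75 ± 0.35, adjusted p = 1.4e-06). The secreted DKK3 (3.68 ± 0.47) and SFRP1 (2.66 ± 0.73) rose, at adjusted p-values of 1.5e-06 and 0.0045. Of 12 Notch pathway genes 3 rose (25%) and 3 fell (25%), near the shares of all genes. HEYL, a Notch-induced repressor (chr3:106442589-106458224), had 0.229, 0.197, 0.277, 0.121 and 0 CPM in late antral cumulus, against 22.4, 32.9, 20.5 and 18.3 CPM in secondary granulosa (−7.03 ± 0.66, adjusted p = 2.8e-08). HES1, a repressor of the same family, had 87.7, 109.6, 79.2, 114 and 124 CPM, against 16.5, 17.9, 19.2 and 26.1 CPM in secondary granulosa, and was higher in every cumulus library (2.40 ± 0.47, adjusted p = 0.00027). The ligand JAG2 averaged 11.3 ± 8.52 CPM against 0.852 ± 0.737 CPM (3.75 ± 1.06, adjusted p = 0.0061), and library 3 held 0.138 CPM.

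Of 18 YAP and TEAD genes 2 rose (11.1%) and 5 fell (27.8%), against 22.9% and 23.1% of all genes (median −0.43). Without late antral cumulus 3 the counts were 1 and 8. Of 21 genes of basement membrane and matrix 2 rose (9.52%) and 5 fell (23.8%), and 1 and 8 with length-corrected offsets. COL18A1, whose fragment is endostatin, had 3.26, 12.3, 15.4, 4.53 and 3.31 CPM in late antral cumulus, against 117, 209, 139 and 93.2 CPM in secondary granulosa (−4.11 ± 0.61, adjusted p = 2e-05). COL4A1, a main chain of basement membranes, was not called (0.34 ± 0.39, adjusted p = 0.49). Of 15 genes of cumulus expansion and EGF signalling 3 rose (20%) and 5 fell (33.3%). Among the receptors and matrix, EGFR had 34.8, 50.3, 39.1, 57.3 and 53.6 CPM, against 11.4, 22.9, 16.9 and 22.6 CPM in secondary granulosa (1.38 ± 0.32, adjusted p = 0.0011), and VCAN, versican, averaged 1491 ± 355 CPM against 354 ± 80.9 CPM (2.11 ± 0.33, adjusted p = 1.7e-05). Among the genes that ovulation induces, PTGS2, the prostaglandin synthase, was at 0.158 ± 0.154 CPM against 2.09 ± 1.12 CPM (−3.68 ± 0.81, adjusted p = 0.00073), and ADAMTS1, a versican-cleaving protease, at 1.34 ± 0.712 CPM against 18.4 ± 6.57 CPM (−3.72 ± 0.71, adjusted p = 0.00027). HAS2, the hyaluronan synthase, was not called: it was under 1 CPM in 8 of the 9 libraries and at 11 CPM in late antral cumulus 3.

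Immediate early genes were lower: 12 of 26 fell (46.2%) and 1 rose (3.85%), against 23.1% and 22.9% of all genes (median −1.36). The counts were 14 and 1 without late antral cumulus 3, and 9 and 1 with length-corrected offsets. FOS had 141, 76.99, 776, 747 and 191 CPM in late antral cumulus, against 3281, 2652, 2255 and 5436 CPM in secondary granulosa (−3.10 ± 0.74, adjusted p = 0.002). FOSB averaged 7.07 ± 6.77 CPM against 250.5 ± 146 CPM (−5.14 ± 0.97, adjusted p = 0.00027). The exception was MYC, at 158, 212, 448, 209 and 196 CPM, against 91.1, 99.7, 91.4 and 95.8 CPM in secondary granulosa (1.43 ± 0.26, adjusted p = 9.9e-05). Of 25 genes of heat shock and the unfolded protein response 4 rose (16%) and 9 fell (36%), against 22.9% and 23.1% of all genes. With length-corrected offsets 2 rose and 6 fell. Without secondary granulosa 2 the rises numbered 2. XBP1, a transcription factor of the unfolded protein response, had 37.03, 19.3, 18.7, 30.2 and 24.2 CPM, against 152, 187, 96.6 and 420.4 CPM in secondary granulosa (−3.00 ± 0.38, adjusted p = 1.6e-06). The chaperone HSPA5 averaged 2137 ± 1086 CPM against 5603 ± 2071 CPM (−1.37 ± 0.31, adjusted p = 0.00085). Of 21 apoptosis and p53 genes 5 rose (23.8%) and 4 fell (19%), near the shares of all genes, with 3 rises without secondary granulosa 4. The death receptor FAS rose (1.27 ± 0.22, adjusted p = 6.4e-05) and its ligand FASLG fell to 0.0831 ± 0.186 CPM, against 2.89 ± 0.861 CPM (−5.04 ± 1.08, adjusted p = 0.00057). Of 15 amino acid transporters 4 rose (26.7%) and 4 fell (26.7%), also near the shares of all genes. The glutamate transporter SLC1A1 averaged 23.3 ± 12.3 CPM against 0.712 ± 0.228 CPM (5.06 ± 0.89, adjusted p = 9.4e-05). SLC38A1, a glutamine transporter, had 52.5, 66.8, 87.6, 67 and 63.8 CPM, against 11.6, 12, 14.5 and 8.65 CPM in secondary granulosa, without overlap (2.58 ± 0.21, adjusted p = 3.1e-09).

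**Figure D4:**
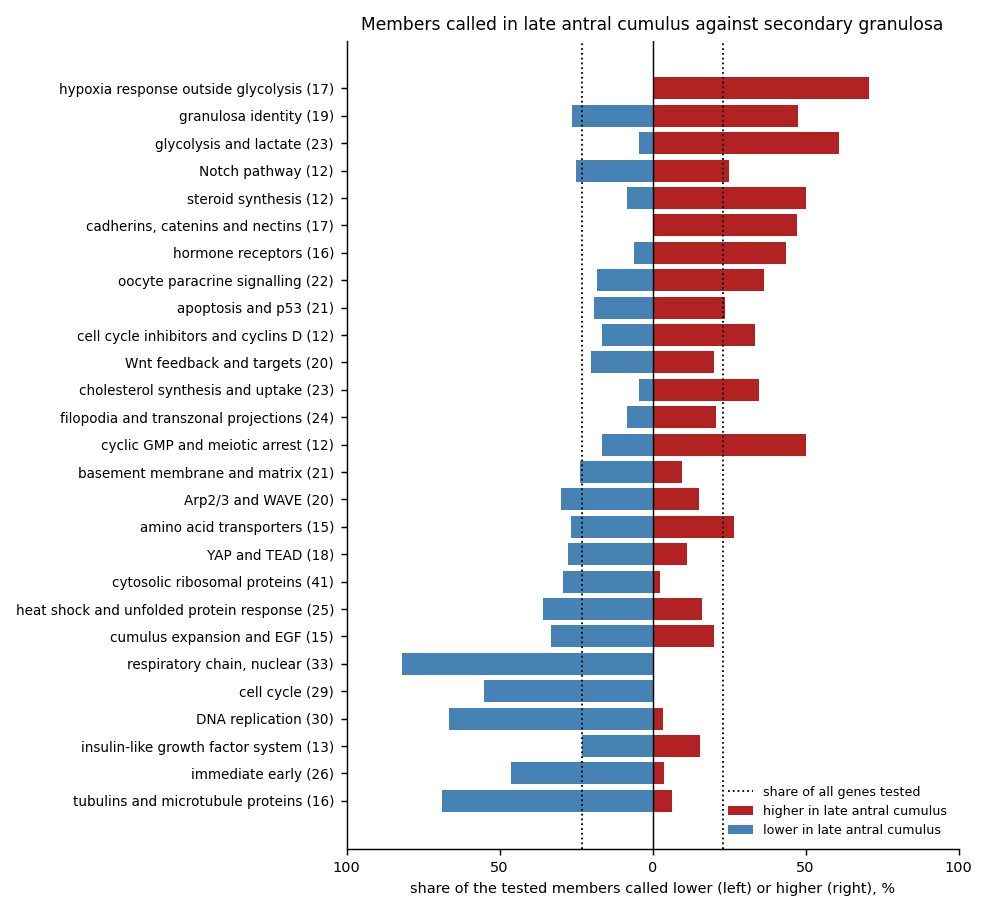
Share of the tested members of 27 gene lists that were called higher (red, right) or lower (blue, left) in late antral cumulus against secondary granulosa, ordered by the median log2 fold change, with the number of tested members in brackets. Dotted lines give the shares over all genes tested, 22.9% higher and 23.1% lower; 27 of 33 respiratory chain genes fell and 12 of 17 hypoxia genes rose.

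Some of the largest changes lay outside these lists. RBM46, an RNA-binding protein known from mouse germ cells, had 22.5, 31.4, 34.95, 39.8 and 35.6 CPM in late antral cumulus and no count in any of the 4 secondary granulosa libraries. Against the limit of 3 counts over that group, 0.0402 CPM, it was at least 808.5-fold higher. GRIK2, a kainate receptor subunit, had 18.8, 20.9, 21.7, 21.5 and 31 CPM, against 2 counts in all secondary granulosa libraries together, a ratio of 837 (231 to 6912, exact counting interval). RIPK4, a serine/threonine kinase, had 42.4, 50.8, 18.4, 62.3 and 57.6 CPM, against 0.0987, 0.2, 0 and 0.597 CPM in secondary granulosa (7.47 ± 0.94, adjusted p = 2.3e-06). KCNN1, a calcium-activated potassium channel, had 74.9, 105, 66.2, 107 and 119.5 CPM, against 1.18, 2, 0.496 and 0.331 CPM in secondary granulosa (6.70 ± 0.89, adjusted p = 6.1e-06). Without secondary granulosa 4 the value for RIPK4 was 8.90. The other rises of this rank were the peptidase MEP1B, the protease ADAMTS19, the transcriptional repressor PRDM6, the immune costimulator ICOSLG, the ankyrin-repeat protein ANKRD44, BREH1 and 2 globins. MEP1B averaged 37.7 ± 9.25 CPM against 0.259 ± 0.228 CPM, ADAMTS19 13.2 ± 1.21 CPM against 0.0578 ± 0.0682 CPM, and PRDM6 34.7 ± 5.74 CPM against 0.2097 ± 0.419 CPM. ICOSLG averaged 22.04 ± 13.1 CPM against 0.1695 ± 0.201 CPM, ANKRD44 12.5 ± 4.03 CPM against 0.1399 ± 0.238 CPM, and BREH1 11.5 ± 6.45 CPM against 0.149 ± 0.189 CPM. All 6 are near 0 in secondary granulosa, so their ratios are imprecise. The globins stood out by late antral cumulus 3, which held far less of them than the other 4 libraries. HBZ had 56.2, 110.3, 3.18, 142 and 127 CPM in late antral cumulus, against 1.78, 1.6, 0.425 and 0.696 CPM in secondary granulosa (6.32 ± 0.83, adjusted p = 4.6e-06). HBA1 had 16.5, 23.5, 0.692, 10.03 and 12.3 CPM, against 0.197, 0.09998, 0.0708 and 0.0331 CPM in secondary granulosa (6.96 ± 0.96, adjusted p = 4.2e-06, and 7.6 without secondary granulosa 1), and its neighbour HBA averaged 43.1 ± 28.1 CPM against 0.374 ± 0.258 CPM. Both alpha-globin copies may share reads. Of the 5 globins tested 3 rose and 2 fell. The red-cell marker ALAS2 was at most 0.138 CPM in late antral cumulus, and HBB was at 0 there.

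Some of the largest falls were of genes with no count in any late antral cumulus library. MAL, a membrane-raft protein, had 24.3, 5.199, 18.5 and 14.7 CPM in secondary granulosa and was at least 464-fold lower in late antral cumulus, against a limit of 3 counts over the group, 0.0361 CPM. LY6E, a membrane-anchored surface protein, had 11.8, 3.499, 5.95 and 24.6 CPM there and was at least 408.7-fold lower. DPEP1, a membrane dipeptidase, had 2 counts over the 5 late antral cumulus libraries, against 30.7, 25.2, 17.3 and 66.1 CPM in secondary granulosa, a ratio of 1733 (479 to 14320, exact counting interval). ITPR3, an inositol trisphosphate receptor, also had 2 counts, against 25.9, 32.8, 19.8 and 26.8 CPM in secondary granulosa, a ratio of 1081 (299 to 8930). MGC133636, to which the annotation gives no role, had 6.58, 3.49, 1.66, 1.93 and 4.23 CPM in late antral cumulus, against 1177, 965, 886 and 1362 CPM in secondary granulosa (−8.19 ± 0.56, adjusted p = 5.2e-10). FATE1, a mitochondrial outer membrane protein, averaged 3.79 ± 2.89 CPM against 472 ± 286 CPM (−6.88 ± 0.77, adjusted p = 8.7e-07). CDH13, a cadherin without a membrane-spanning segment, had 0.343, 0.147, 0.277, 0 and 0.282 CPM in late antral cumulus, against 27.98, 8.199, 30.7 and 26.9 CPM in secondary granulosa (−6.74 ± 0.54, adjusted p = 3.6e-09). ILDR2, the mucosal peptide TFF2, FAM174B and MSMB were also among the 15 largest falls, as were WNT6, NKD1 and HEYL. ILDR2 averaged 0.0735 ± 0.106 CPM against 21.4 ± 5.87 CPM and TFF2 0.0393 ± 0.0879 CPM against 13.7 ± 5.55 CPM. FAM174B averaged 0.0831 ± 0.186 CPM against 12.8 ± 5.24 CPM and MSMB 0.116 ± 0.198 CPM against 13.3 ± 4.73 CPM. CPM without overlap between the groups was a condition for the 15 largest rises and for the 15 largest falls. It therefore adds no evidence for the genes of either set.

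In CPM, the mitochondrial large ribosomal RNA (KEH36_r01 in the RefSeq table) showed the largest difference, with 51648, 69690.1, 141757, 77949.9 and 76751 CPM in late antral cumulus, against 9491, 21927, 47108 and 9282 CPM in secondary granulosa (1.95 ± 0.47, adjusted p = 0.0018). Library 3 held the most of it, and without secondary granulosa 3 the log2 fold change was 2.69. SRGN, the proteoglycan serglycin, averaged 23518 ± 6871 CPM against 7611 ± 1606 CPM (1.68 ± 0.63, adjusted p = 0.033), and VIM, vimentin, averaged 8309 ± 2799.6 CPM against 3464 ± 696 CPM (1.30 ± 0.25, adjusted p = 0.00019). The largest losses were of the mitochondrially encoded COX3 and COX1, with COX1 at 5170.2, 4605, 15559, 6119 and 4782 CPM in late antral cumulus, against 13882, 21108, 22105 and 8954 CPM in secondary granulosa. COX1 and COX3 fell by 1.13 and 1.13 on the log2 scale (adjusted p = 0.02 and 0.026). Neither was called with length-corrected offsets, nor in 7 further alternatives each, among them single libraries left out. Of the 13 protein-coding mitochondrial genes, a set chosen after the values were seen, 3 fell (COX1, COX2 and COX3) and none rose. Over all genes tested 23.1% fell and 22.9% rose, so the count of falls was near the share of all genes. UBB, a polyubiquitin gene, averaged 1206 ± 449 CPM against 5699 ± 1648 CPM (−2.19 ± 0.37, adjusted p = 4.5e-05). FTH1, ferritin heavy chain, averaged 946 ± 294 CPM against 4298 ± 959.8 CPM (−2.13 ± 0.28, adjusted p = 2.1e-06). Both genes have processed copies elsewhere in mammalian genomes, so their reads may be shared.

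Early antral cumulus divides the span in 2 steps. The first step, early antral cumulus against secondary granulosa, held 285 calls (1.99%), and the second, late against early antral cumulus, 6457 (45.2%). The 2 steps share the early antral libraries, and their difference was tested directly, as the second minus the first: 3095 genes (21.6%) differed between steps, 1274 with the higher change in the second step (8.91%) and 1821 with the lower (12.7%). Without early antral cumulus 1 that count was 2026. For cell cycle genes 21 of 29 were lower in the second step than in the first and none higher, with median changes of 0.52 and then −1.38. DNA replication genes gave 21 of 30, with medians of 0.46 and −1.52. The nuclear respiratory chain gave 26 of 33, with medians of 0.32 and −1.16. The contrast of the steps was not fitted with length-corrected offsets, so the part of length there was not tested. For the glycolysis list, 1 of 23 differed between the steps, and for the hypoxia list 3 of 17; without late antral cumulus 3 these counts were 3 and 6.

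**Figure D5:**
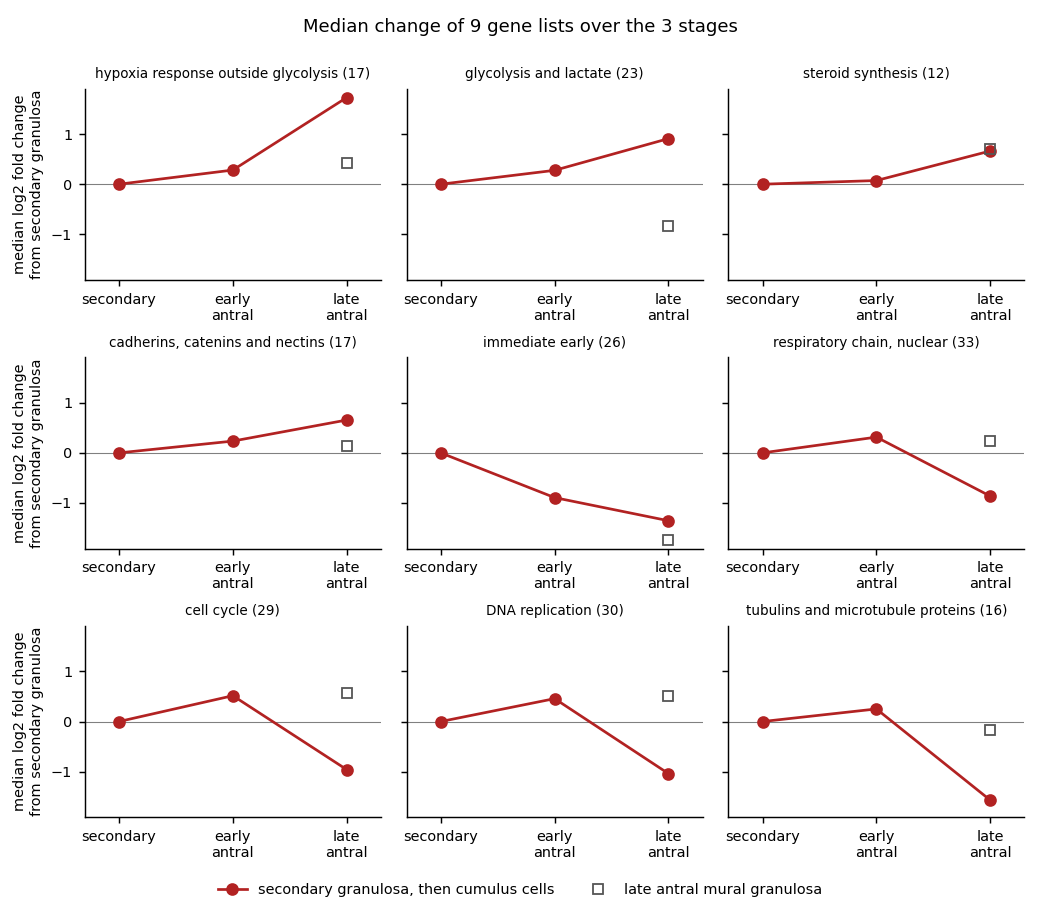
Median log2 fold change from secondary granulosa of 9 gene lists, in early and then late antral cumulus (filled points, joined) and in late antral mural granulosa (open squares); the number of tested members is in brackets. Cell cycle genes stood at 0.52 in early antral cumulus and −0.96 in late antral cumulus, and at 0.57 in late antral mural granulosa.

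Several genes had their highest mean level in early antral cumulus. GJA5, connexin 40, was at 4.54, 0.7999, 0.921 and 5.57 CPM in secondary granulosa, 15.7, 13.3, 6.802, 6.81 and 11.9 CPM in early antral cumulus and 0, 0.197, 0.138, 0 and 0 CPM in late antral cumulus (second minus first step, adjusted p = 2.9e-05). GRB7, an adaptor of receptor tyrosine kinases, averaged 4.01 ± 0.804 CPM in secondary granulosa, 12.4 ± 3.25 CPM in early antral cumulus and 0.0518 ± 0.0713 CPM in late antral cumulus (adjusted p = 5.8e-08). MYH6, a myosin heavy chain of heart muscle, averaged 5.65 ± 0.943, 28.2 ± 16.3 and 0.768 ± 0.539 CPM in the same order (second minus first step −7.55 ± 1.34, adjusted p = 0.00076). PAG11, a pregnancy-associated glycoprotein of a large family whose members may share reads, averaged 1.08 ± 1.699 and 10.02 ± 7.97 CPM, and was at 0 in every late antral cumulus library. GREM1 followed the same course, at 20.01 ± 2.71, 58.5 ± 10.7 and 7.55 ± 1.74 CPM (−4.53 ± 0.39, adjusted p = 6.8e-08), and was called in both steps, in opposite directions. GRB7 was called in the first step as well (adjusted p = 0.036), while GJA5, MYH6 and PAG11 were not (adjusted p = 0.13, 0.15 and 0.15), so for these 3 the difference of early antral cumulus from secondary granulosa was not shown. NKD1 and MAL, at 0 or nearly so in late antral cumulus, still averaged 23.6 ± 5.76 and 6.701 ± 6.61 CPM in early antral cumulus. At the other end, HBA1, HBA, ANKRD44 and BREH1 had the higher change in the second step, with 0.0182 ± 0.0253, 0.123 ± 0.0262, 0.124 ± 0.0938 and 0.156 ± 0.183 CPM in early antral cumulus. A mitochondrial transfer RNA, KEH36_t15, averaged 3.72 ± 3.66, 1.58 ± 0.998 and 35.3 ± 18.8 CPM over the 3 stages (second minus first step 5.66 ± 1.54, adjusted p = 0.013). MGP, matrix Gla protein, fell in the first step: it averaged 13.1 ± 15.6 CPM in secondary granulosa, 0.294 ± 0.3495 CPM in early antral cumulus and 0.285 ± 0.281 CPM in late antral cumulus, with 0.790 to 34.7 CPM among the secondary granulosa libraries.

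Against mural granulosa the change of cumulus cells differed at 5673 genes (39.7%), 2704 higher (18.9%) and 2969 lower (20.8%), by the test of late antral cumulus against late antral mural cells. That test equals the difference of the 2 net changes, since both start from the same secondary granulosa libraries. Mural cells alone had 4550 calls against secondary granulosa (31.8%). Glycolysis and hypoxia parted the cell types: 16 of 23 glycolysis genes were higher in late antral cumulus than in late antral mural cells and 2 lower, and 12 of 17 hypoxia genes were higher and none lower. VEGFA averaged 991 ± 538 CPM in late antral cumulus and 8.02 ± 3.09 CPM in late antral mural cells (6.67 ± 0.59, adjusted p = 3.9e-08). SLC16A3 averaged 197 ± 111 CPM and 1.75 ± 2.001 CPM in the same order (6.45 ± 0.79, adjusted p = 2e-06). Division genes parted them the other way, with 26 of 29 cell cycle genes and 26 of 30 DNA replication genes lower in late antral cumulus and none higher. All 33 nuclear respiratory chain genes, which are short, were lower. The shortest class of exon length took 24.8% to 32.4% of the counts in late antral cumulus, against 39.1% to 42.1% in late antral mural cells. No length-corrected fit was run against mural cells, so the part of length in these differences was not tested. In the steroid synthesis list 1 of 12 was higher and 3 lower, and 2 were higher and 1 lower without mural library 3. KITLG had 1.03, 2.46, 0.831, 2.42 and 2.47 CPM in late antral cumulus, against 5.04, 2.78, 52.3, 4.51 and 5.17 CPM in late antral mural cells (−3.04 ± 0.62, adjusted p = 0.00045). Mural library 3 was far above the rest, and without it the log2 difference was −1.52. MYO10, which was not called over the span of cumulus growth, was higher in late antral cumulus than in late antral mural cells, at 85.6 ± 13.9 CPM against 18.7 ± 6.21 CPM (2.01 ± 0.26, adjusted p = 1.5e-06).

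Markers of other cell types were measured beside these changes. The summed oocyte markers were 2.11 to 6.37 CPM in late antral cumulus and 2.76 to 12.5 CPM in secondary granulosa (exact permutation p = 0.333, two-sided), with BMP15, FIGLA, MOS, DDX4 and KPNA7 at 0 in both and 0 of 5 tested members called. Blood and immune markers summed to 2.75 to 7.12 CPM, against 2.37 to 8.64 CPM in secondary granulosa (exact p = 0.603), with PTPRC at 0 in late antral cumulus and 0 of 5 tested markers higher and 2 lower. Endothelial markers summed to 4.58 to 12.5 CPM in late antral cumulus and 35.6 to 44.0 CPM in secondary granulosa (exact p = 0.0159, the smallest that 5 against 4 libraries allow, and 0.0635 adjusted over the 4 lists). Of 6 tested, 3 fell and none rose: FLT1 averaged 3.01 ± 2.48 CPM against 25.6 ± 2.63 CPM and ENG 0.718 ± 0.243 CPM against 7.85 ± 2.12 CPM, while EMCN was at 0 in both groups, PECAM1 at 0 in late antral cumulus, and CDH5 and ESAM at 0 in secondary granulosa. Theca and stroma markers summed to 242 to 730.1 CPM, against 331 to 535 CPM in secondary granulosa (exact p = 0.27), with 2 of 12 tested higher and 4 lower. INSL3 made most of that sum in late antral cumulus, CYP17A1, the defining enzyme of theca, was at 0 in both groups, PDGFRA rose (5.06 ± 1.28) and DCN (−5.69 ± 1.45) and MYH11 (−2.79 ± 0.52) fell, at adjusted p-values of 0.0031, 0.0034 and 0.0002. Over all genes tested 22.9% rose and 23.1% fell. The part of other cells in the changes above was not tested.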

How the data were processed

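The deposited table gives whole-number read counts per gene. Per the file headers, the authors ran featureCounts 2.0.0 over the exons of Ensembl 105 genes (ARS-UCD1.2), with no option for strand, pairs or multiple alignments. The submitters' processing notes add fastp 0.20.0, HISAT2 2.1.0 and SAMtools 1.10. Without strand, overlapping and antisense genes cannot be separated. Of 27607 genes, 6590 had no count in any library, and 1 column of undetermined reads, which is no sample, was left out. Reads carry no molecular identifiers, so limits and intervals cover counting error only. The numbers of the secondary granulosa columns differ from those in the titles, and those of late antral mural columns are missing, so libraries of these 2 groups are numbered by column order. Libraries of the same group differed beyond sampling noise in all 16 pairs, with a chi-square of at least 30.7 per degree of freedom.

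Symbols came from RefSeq genes of ARS-UCD2.0 by position (mutual best overlap of at least 0.5 of the union, or identical span): 11439 of 14298 tested genes (80%) got one. After a shift of 1000000 bases 932 would still match, so a single name can be wrong. The counts were tested with edgeR 4.0.16 in R 4.3.3 (TMM, filterByExpr, robust quasi-likelihood, all 24 libraries in 1 fit by group, Benjamini-Hochberg over all genes), with a biological coefficient of variation of 42.4%. SE are those the test statistic implies. On simulated counts for 13998 genes the comparison recovered 24% of 2-fold and 70% of 4-fold changes with 4.08% false calls. The contrast of the steps recovered 4% and 34% without false calls, and late antral cumulus against mural 26% and 70% with 5.88% false calls. In the simulation 100 genes changed 2-fold and 100 changed 4-fold, in late antral cumulus only. In the data 46% of the genes were called, and the adjustment depends on that share. The simulated rates therefore do not give the power of the real comparisons.

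Named genes are the 15 largest rises and falls with a mean of at least 10 CPM in the higher group and no overlap, the 5 largest rises and falls in CPM, the 6 highest and lowest contrasts of the steps, 20 fixed genes and the members of 33 lists; some of these genes are not reported here. Members, lists and rule were chosen with earlier results of these data known, so no list is independent evidence. Alternatives were RLE scaling, no filter, a mean of at least 10 CPM, DESeq2 1.42.0, limma-voom (limma 3.58.1), only the groups of a contrast, length-corrected offsets, each library left out, 3 libraries left out together, and a replicate block. Length-corrected offsets and the replicate block were fitted only for late antral cumulus against secondary granulosa.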

Additional observations from a re-analysis of the deposited data

Results flagged for a closer look

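Among 130 groups of 4 or 5 libraries of the named genes, 11 held 1 library far from the others. The cut-off used (Dixon's ratio) gives about 1 in 20 for independent groups of normally distributed values. CPM need not be so distributed, the groups share libraries, and groups at very low CPM could not be flagged. The count of 11 was therefore not set against chance. Late antral cumulus 3 was the outlying library in 7 of the 11 groups. It held 0.969 CPM of PPP1R3C (median of the others 21.5) and 39.5 CPM of HSD3B1 (206). In the other direction it held 11710 CPM of COX3 (6362), 15560 CPM of COX1 (4976), 610 CPM of CDH2 (316), 11 CPM of HAS2 (0.378) and 5.68 CPM of PTX3, which was at 0 in the median of the others. The remaining 4 were GRIK2 at 31 CPM in late antral cumulus 5 (21.2), HSPA5 at 4053 CPM in late antral cumulus 4 (1666), CDH13 at 8.20 CPM in secondary granulosa 2 (27.98) and PAG11 at 3.61 CPM in secondary granulosa 4 (0.296). The source of the difference between late antral cumulus 3 and its group was not tested.

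The net changes of cumulus and of mural cells from secondary granulosa differed at 5673 genes by the test of the difference itself. On the log2 scale, late antral cumulus minus late antral mural cells was −6.70 for MSMB, 7.01 for HBA1, 9.62 for HBZ, −3.04 for KITLG and 2.01 for MYO10. The column of undetermined reads, which belongs to no sample, held 41567882 counts, 8.3% of all counts in the table.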

How the results depend on the processing

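The count of 6577 genes over the whole span was 6558 with RLE scaling, 6287 without a filter, 4475 at a mean of at least 10 CPM, 6911 with DESeq2, 7100 with limma-voom, 5752 with only its own groups and 5774 with length-corrected offsets. It was 7225 without late antral cumulus 3, late antral mural 3 and early antral mural 4, and 5472 to 6581 with single libraries left out, and no call of these fits changed direction. The contrast of the steps ran from 2026 to 3363 with single libraries left out, against 3095; the lowest was without early antral cumulus 1. The summed blood and immune markers differed by −0.814 CPM (late antral cumulus minus secondary granulosa), and by −1.80 CPM without secondary granulosa 1 to 0.296 CPM without secondary granulosa 3, where the sign turned (exact permutation, adjusted p = 0.821). Against late antral mural cells, the log2 differences of FSCN1 (−1.59) and CDH1 (−0.78) were not called in the main fit. Without late antral mural 3 they turned to 1.77 and 1.498 and both were called (edgeR, adjusted p = 0.0068 and 5.6e-05). Without the 3 libraries together they were 1.49 and 1.31, again called (adjusted p = 0.019 and 0.00019). With limma-voom on all libraries they were 0.69 and 0.56 and not called (adjusted p = 0.529 and 0.413). With any other single library left out they reached −1.91 and −1.05. The cause was not tested. For the other named genes, signs turned between values not called in either fit. Over all genes of the mural contrast, 5 calls changed direction without late antral mural 3 and 3 without the 3 libraries together. Its count of 5673 ran from 4856 to 5891 with single libraries left out. In the same contrast, values with single libraries left out ran from −11.22 to 4.19 for PTX3, −2.61 to 0.52 for DPEP1, −0.99 to 0.11 for NKD1, −0.23 to 0.40 for SRGN, −0.14 to 0.33 for FSHR, −0.13 to 0.38 for INHA and −0.065 to 0.51 for HSD3B1, and without the 3 libraries they were −0.13 for SRGN, −0.0056 for KEH36_r01 and −0.11 for FSHR. Against secondary granulosa MYO10 stood at −0.073 with length-corrected offsets. Of the other values under an alternative, for single genes and for list counts, 3399 were taken as unchanged. For a gene this meant the same direction and the same side of the threshold. For a list it meant only a count equal to the main count or within a set ratio of it. Single genes lost a call in 141 values and gained one in 36, and 155 list counts moved by more than that ratio. Counts of 3 or fewer list members moved by up to 2 with 1 library left out. Of the 65 genes followed one by one over the whole span, the calls lost in at least 1 alternative were those of CDH1, CDH2, COX1, COX3, CYP11A1, CYP19A1, FSCN1, INHA, MYH6, PAG11, SRGN and VIM; other list members were followed only through their lists' counts.

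The replicate numbers of the columns were tried as a block in a fit of 8 libraries, which called 5272 genes, against 4853 for these libraries without the block. Same-numbered libraries correlated only at 0.155, 0.14, −0.046 and 0.036, yet 3 of 4 correlated best with their own number. Whether the numbers pair the samples was therefore not settled, and the main fit treats the libraries as unpaired. The planned block by title numbers was not run, because the secondary granulosa columns carry other numbers. The block by column numbers was chosen after seeing the data. Depth limits genes with few counts: 3 counts over a group equal 0.0361 CPM in late antral cumulus and 0.0402 CPM in secondary granulosa.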
